A study of Sus scrofa with 15 samples.

Results

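The pig genes that build and switch cyclin B and CDK1, the kinase complex that drives a cell into division, were followed through oocyte maturation by RNAseq. They were taken by gene symbol, 10 of the 22516 genes of the gene table: the cyclins *CCNB1*, *CCNB2* and *CCNB3*, the kinase *CDK1*, the phosphatases *CDC25A*, *CDC25B* and *CDC25C*, and the inhibitory kinases *WEE1*, *WEE2* and *PKMYT1*. Oocytes from sow ovaries of an abattoir gave 15 libraries in 3 groups of 5, each library a pool of 15 oocytes, from collections that the methods call biologically independent. GV oocytes, arrested before meiosis resumes with the germinal vesicle intact, came straight from follicles with no culture and no first polar body. MII oocytes had been matured *in vitro* within their cumulus complexes, 44 h by the labels, and showed a first polar body, the mark of arrival at metaphase II. ‘Damaged’ oocytes came from the same kind of culture but lacked a first polar body, so the group may hold oocytes halted at several points. Each pool gives an average of its oocytes, and no group separates culture from maturation, because GV oocytes were not cultured.

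In textbook accounts, cyclin B binds CDK1 to form maturation promoting factor. WEE1, its oocyte relative WEE2 and the membrane-bound kinase PKMYT1 place inhibitory phosphates on CDK1, which holds the complex off while the germinal vesicle is intact. CDC25 phosphatases remove those phosphates, and the oocyte then enters the first division. The fully grown oocyte makes little new RNA, so stored transcripts are used, given longer or shorter poly(A) tails, or destroyed as maturation goes on.

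The labels call the RNA polyadenylated, and the kit used primes on poly(A) tails. A level here is a share of such RNA in its library, and less RNA of a gene per oocyte cannot be told apart from fewer oocytes that carry it. Library totals lay between 6.40 and 23.6 M estimated counts. GV replicate 3 had the lowest, 6.40 M, was left out as the study left out its shallowest GV library, and is given apart below, so GV has n = 4 in the tests. Of 10 oocyte markers 9 were in the files, with a summed level of 11181 to 15384 TPM (a unit that corrects for transcript length and sums to the same total in every library) in GV, 2456 to 4006 in MII and 2908 to 4085 in damaged oocytes. Of 14 cumulus and granulosa markers 9 were in the files, with summed TPM of 16.1 to 21.9, 16.4 to 24.9 and 20.4 to 27.2, and 3 blood markers summed to 0.180 to 1.40 TPM. None of the markers in the files was at 0 in every library of a group. Of the 2 cumulus markers tested *FST* was higher than in GV in MII (log2 fold change 1.47, limma FDR 3.63e-07) and in damaged oocytes (1.62, FDR 8.98e-08). The other, *STAR*, was not called in MII (-0.40, FDR 0.340) or in damaged oocytes (-0.23, FDR 0.584). The remaining cumulus markers in the files did not pass the filter on low counts. In MII 6 of the 9 oocyte markers were lower, beside 34.2% of all genes tested. The part of the markers in the results was not tested. Replicate 3 of MII and of damaged oocytes stood above their groups for *CCNB2*, and damaged replicate 1 stood low for *CCNB3* and *WEE2*. Those libraries are named beside the main values they touch.

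Comparing MII with GV oocytes, the members split into both directions. *CCNB1*, *CCNB3*, *CDC25C* and *WEE2* were higher in MII oocytes, while *CDK1*, *CDC25A* and *CDC25B* were lower. These 7 of the 9 members tested passed a false discovery rate (FDR) of 0.01 (limma voom, adjusted over 13222 genes), against a background of 62.4% of all genes tested, 28.2% higher and 34.2% lower. Comparing damaged with GV oocytes, the counts were also 4 higher and 3 lower, against 61.4% of all genes, 28.0% higher and 33.4% lower. With the further threshold of an absolute log2 fold change over 2, which the study used for differentially expressed genes (DEGs), 1 member was higher (*CCNB1*) and 3 were lower in either comparison. The background of DEGs was 21.6% of all genes for MII (4.51% higher, 17.0% lower) and 20.5% for damaged oocytes (4.08% and 16.4%). Both comparisons use the same GV libraries and are not independent. *CCNB2* and *PKMYT1* were not called, and *WEE1* did not pass the filter on low counts.

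How libraries are scaled sets the size of each change, and it decided the FDR call of 4 members and the DEG call of *CCNB1*. The values below are scaled CPM, counts relative to a library size corrected by TMM factors, which set libraries on the bulk of their genes and were 1.35 to 1.73 in GV and 0.794 to 0.922 in the matured libraries. On this scale all genes tested had a median log2 fold change of -0.17 for MII and -0.14 for damaged oocytes. On library sizes with no factors it was -1.09 and -1.01, and of all genes 10.9% were then higher and 57.6% lower in MII, and 11.2% and 56.0% in damaged oocytes, with 0.363% and 29.4% (MII) and 0.333% and 27.8% (damaged) as higher and lower DEGs. *CCNB1* and *WEE2* stayed higher and *CDK1*, *CDC25A* and *CDC25B* lower on either scale. *CCNB3* and *CDC25C* were no longer called on library sizes, and *CCNB2* and *PKMYT1* were then called lower.

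*CCNB1* (ENSSSCG00000029326), the main cyclin partner of CDK1 at entry into division, lies on chromosome 16 (47338239 to 47348385 on Sscrofa11.1, by RefSeq). It had a single transcript among those with a count in any library. Its level was 1182, 760, 936 and 694 scaled CPM in GV replicates 1, 2, 4 and 5. It was 4571, 5772, 5562, 5591 and 5063 in the MII replicates and 4397, 5239, 5281, 5372 and 4407 in the damaged replicates. All 10 matured libraries lay above all 4 GV libraries, and MII and damaged libraries overlapped. The log2 fold change was 2.60 ± 0.14 (SE) for MII versus GV, 6.06-fold (limma FDR 1.2e-11), and 2.49 ± 0.14 for damaged versus GV, 5.63-fold (FDR 2.18e-11). On library sizes it was 1.68 and 1.62, which passed the FDR but not the DEG threshold, so that no member was then a higher DEG.

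*CCNB2* (ENSSSCG00000004588), a B-type cyclin linked in somatic cells to the Golgi, lies on chromosome 1 (112907047 to 112942218). It had 799, 614, 619 and 509 scaled CPM in GV replicates 1, 2, 4 and 5, and 316, 390, 828, 496 and 391 in MII replicates 1 to 5. The damaged replicates had 365, 478, 968, 398 and 376. Within the matured groups replicate 3 stood above the others, at 828 and 968, and without it the MII and damaged libraries lay below every GV library. Its change on the log2 scale was -0.46 ± 0.27 for MII (FDR 0.133) and -0.38 ± 0.27 for damaged oocytes (FDR 0.204). In a limma fit with a block for the replicate number the change was -0.69 (FDR 0.000424) and -0.62 (FDR 0.00113) and was called. The labels do not tie these numbers to collections, so the call of *CCNB2* depends on a pairing that is not known. With both replicates 3 left out, an alternative added after seeing the data, it was -0.67 (FDR 0.00123) and -0.64 (FDR 0.00183) and was called. In TPM, which is scaled within each library to a fixed total, the GV libraries, at 770 to 837, lay above all matured libraries, at 191 to 566 in MII and 215 to 623 in damaged oocytes, and on library sizes the log2 fold change was -1.37 (FDR 9.42e-05) and -1.25 (FDR 0.000231).

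*CCNB3* (ENSSSCG00000012307), the cyclin B member best known from meiosis, lies on the X chromosome (43922729 to 43988939). It had 160, 161, 176 and 178 scaled CPM in the 4 GV libraries, 373, 486, 467, 592 and 368 in the MII replicates and 235, 513, 357, 517 and 571 in the damaged replicates. The GV libraries lay close together, and damaged replicate 1 was the matured library nearest to them. *CCNB3* changed by 1.42 ± 0.21 (log2) for MII (limma FDR 5.81e-06) and 1.31 ± 0.21 for damaged oocytes (FDR 1.59e-05). On library sizes the change was 0.51 (FDR 0.0487) and 0.43 (FDR 0.0901), which did not pass.

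*CDK1* (ENSSSCG00000010214), the kinase itself, lies on chromosome 14 (64233945 to 64255290) and fell while its cyclin partner rose. It had 760.4, 267, 429.6 and 209.6 scaled CPM in GV replicates 1, 2, 4 and 5, a wide spread. It had 20.1, 20.9, 35.0, 25.2 and 19.7 in the MII replicates and 21.3, 24.3, 21.7, 22.6 and 19.4 in the damaged replicates, which lay close together. All GV libraries stood far above all matured libraries, of which MII replicate 3 was the highest. The log2 fold change was -3.96 ± 0.29 for MII, 15.5-fold lower (limma FDR 3.31e-10), and -4.07 ± 0.29 for damaged oocytes, 16.8-fold lower (FDR 2.57e-10).

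The CDC25 phosphatases, which activate CDK1, split into a pair that fell and a member that rose. *CDC25A* (ENSSSCG00000021494), whose position RefSeq gives only on an unplaced sequence, had 33.7, 49.5, 40.1 and 61.4 scaled CPM in GV, 4.51, 4.16, 8.74, 4.40 and 5.00 in MII and 4.90, 5.32, 2.66, 6.75 and 7.69 in damaged oocytes. Every matured library was below every GV library, and each replicate 3 lay at an end of its group, the top in MII and the bottom in damaged oocytes. For *CDC25A* the log2 fold change was -3.13 ± 0.26 in both comparisons, 8.75-fold and 8.76-fold lower (limma FDR 2.6e-09 and 2.51e-09). The matured values rest on 43.8 to 114 counts per library.

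*CDC25B* (ENSSSCG00000007151), the phosphatase that mouse oocytes need to resume meiosis, lies on chromosome 17 (31910824 to 31929418). It had 117, 114, 90.4 and 179 scaled CPM in GV, 2.92, 5.44, 8.51, 4.96 and 5.93 in MII and 10.4, 5.24, 17.0, 8.09 and 9.76 in damaged oocytes. The groups did not overlap with GV, and most damaged libraries lay above most MII libraries. For *CDC25B* the log2 fold change was -4.50 ± 0.29 for MII, 22.7-fold lower (limma FDR 7.55e-11), and -3.67 ± 0.27 for damaged oocytes, 12.7-fold lower (FDR 4.07e-10). The matured values rest on 30.9 to 280.2 counts per library.

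*CDC25C* (ENSSSCG00000051455), the family member that acts at entry into mitosis, lies on chromosome 2 (140289156 to 140323696) and was higher after maturation. It had 62.4, 42.5, 43.5 and 40.9 scaled CPM in GV, 90.5, 115, 160.1, 110.2 and 129 in MII and 95.5, 113, 110.4, 115 and 128 in damaged oocytes. All matured libraries were above all GV libraries, with GV replicate 1 and MII replicate 3 at the top of their groups. For *CDC25C* the log2 fold change was 1.35 ± 0.17 for MII (limma FDR 4.77e-07) and 1.27 ± 0.17 for damaged oocytes (FDR 1.18e-06), and on library sizes 0.43 (FDR 0.0261) and 0.39 (FDR 0.0451), which did not pass.

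Of the kinases that inhibit CDK1, the oocyte form carried nearly all of the RNA. *WEE2* (ENSSSCG00000016489), which is expressed chiefly in oocytes, lies on chromosome 18 (8171133 to 8196836). It had 531, 466, 670.2 and 511 scaled CPM in GV, 1783, 2389, 2206, 2335 and 2043 in MII and 1109, 2170, 2128, 2582 and 2256 in damaged oocytes. Damaged replicate 1 was the lowest matured library and was still above all GV libraries. The log2 fold change was 1.99 ± 0.19 for MII (limma FDR 1.76e-08) and 1.87 ± 0.19 for damaged oocytes (FDR 4.3e-08), just under the DEG threshold of 2. *WEE2* passed that threshold in MII without GV replicate 4, MII replicate 1, MII replicate 5 or damaged replicate 5, and in damaged oocytes without damaged replicate 1.

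*WEE1* (ENSSSCG00000013411), the somatic form, lies on chromosome 2 (49880416 to 49894509) and was near the limit of detection. It had 2.03 to 8.26 counts in the 5 GV libraries, 0 to 10.8 in MII and 0 to 3.96 in damaged oocytes, and was at 0 in MII replicate 2 and damaged replicate 4. At this depth no difference could be shown. *PKMYT1* (ENSSSCG00000029264), the membrane-bound inhibitory kinase, lies on chromosome 3 (39201819 to 39209261) and was low throughout, with 1.53, 3.97, 2.84 and 3.48 scaled CPM in GV, 2.26, 1.43, 1.87, 1.74 and 1.32 in MII and 1.92, 1.02, 1.58, 1.76 and 2.51 in damaged oocytes. GV replicate 1 lay within the range of the matured libraries. The log2 fold change was -0.73 ± 0.30 for MII (limma FDR 0.0365) and -0.71 ± 0.30 for damaged oocytes (FDR 0.0413), and without GV replicate 1 it was -0.98 (FDR 0.0025) and -0.96 (FDR 0.00292), which was called.

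**Figure D1:**
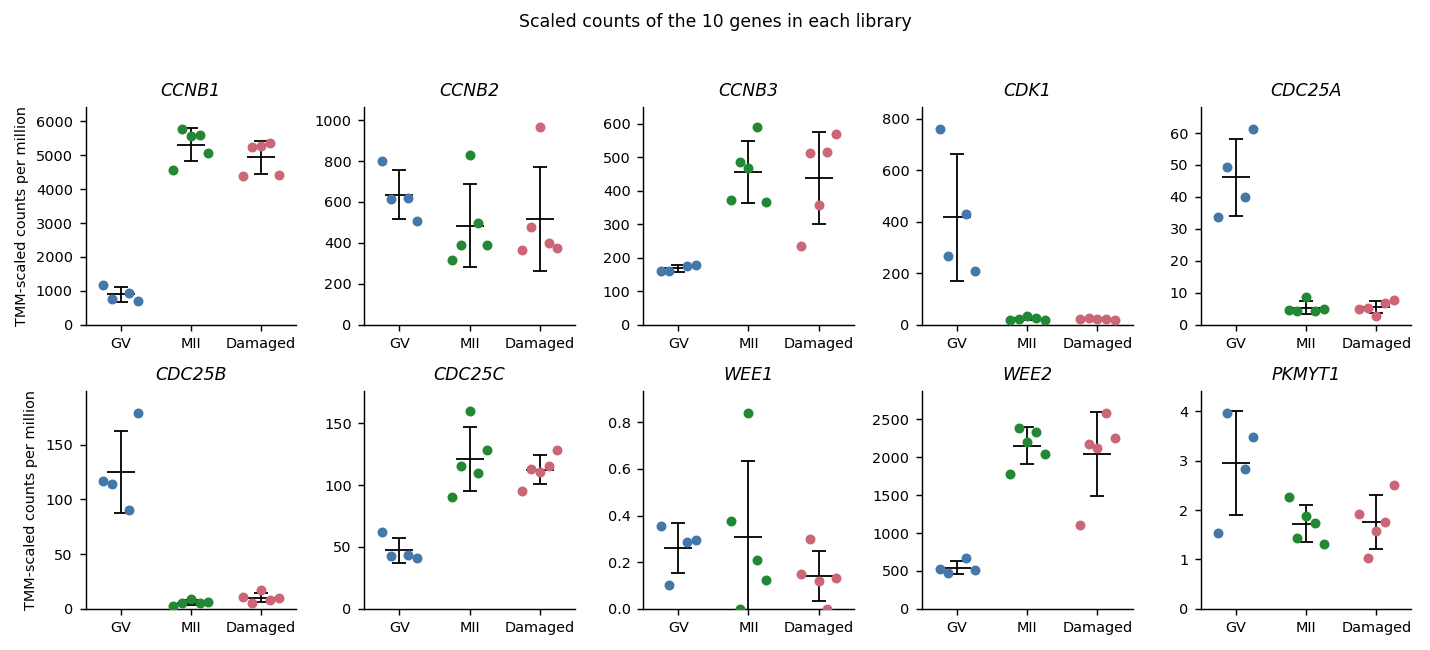
Scaled CPM (vertical axis, linear, starting at 0) of the 10 genes in the libraries of the GV, MII and Damaged groups; each point is a library in replicate order, with GV replicate 3 left out, and the bar and whiskers give mean ± SD (n = 4, 5 and 5). *CCNB1* sits at 694 to 1182 in GV and at 4397 to 5772 after maturation, *CDK1* goes from 209.6 to 760.4 down to 19.4 to 35.0, and *CCNB2*, *PKMYT1* and *WEE1* overlap between groups.

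Comparing MII with damaged oocytes asks whether the switch genes differ between matured oocytes that did and did not extrude a polar body. None of the 9 members passed the test, and none of the 13222 genes did (0.0% called by limma, and 0 genes by edgeR and by DESeq2). At an unadjusted limma p under 0.05 there were 367 genes (2.78%), a smaller share than that threshold gives when no gene differs. The log2 difference, MII minus damaged, was 0.11 for *CCNB1* (95% interval -0.18 to 0.39), 0.12 for *CDK1* (-0.45 to 0.68) and 0.12 for *WEE2* (-0.26 to 0.49). It was -0.07 for *CCNB2* (-0.60 to 0.45), 0.11 for *CCNB3* (-0.31 to 0.52) and 0.00 for *CDC25A* (-0.51 to 0.52). For *CDC25C* it was 0.09 (-0.24 to 0.41) and for *PKMYT1* -0.02 (-0.61 to 0.57). *CDC25B* was the member furthest from 0, at -0.83 (-1.38 to -0.28), 0.561-fold in MII against damaged oocytes, with an unadjusted p of 0.00507 in the limma fit and an FDR of 1.0. The 2 groups overlapped for every member tested. The labels of the transcript files were used for every library, because 7 of the 15 gene table columns held the total of a differently labelled library.

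**Figure D2:**
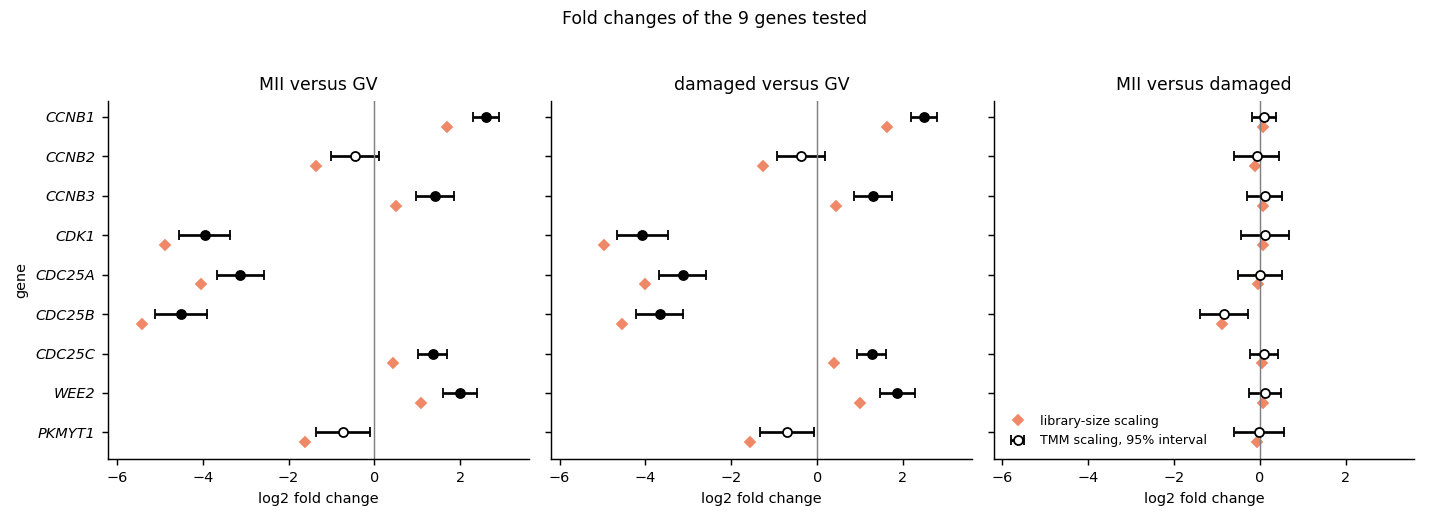
Log2 fold change (horizontal axis) of the 9 genes tested in each of 3 comparisons; circles give TMM scaling with 95% intervals, filled where the limma FDR was under 0.01, and diamonds give the same change on library sizes. For MII versus GV the circles run from -4.50 for *CDC25B* to 2.60 for *CCNB1*, the diamonds sit to their left, and for MII versus damaged no circle is filled.

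Levels can be set against each other between genes in TPM. In GV oocytes *CCNB1* was the most abundant member, at 1028 ± 88.8 TPM (SD, n = 4). *CCNB2* at 804, *CDK1* at 767 and *WEE2* at 694 TPM followed and overlapped with their neighbours in that order. *CDC25B* at 123 TPM lay below these and above *CDC25C* at 65.5 and *CCNB3* at 62.6, which overlapped. *CDC25A* at 31.3 TPM overlapped with *CCNB3* at its upper end, while *PKMYT1* at 2.47 and *WEE1* at 0.188 TPM were at the bottom and apart from it.

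After maturation *CDK1* had dropped from this leading set. In MII oocytes *CCNB1* stood at 3022 ± 350 TPM (SD, n = 5), *WEE2* at 1324 ± 166 and *CCNB2* at 306 ± 150.2, in ranges that did not overlap. *CDC25C* at 83.0 and *CCNB3* at 81.0 TPM did overlap, *CDK1* followed at 23.1 TPM, and *CDC25B* at 2.60 and *CDC25A* at 1.72 TPM overlapped with each other. Damaged oocytes had the same order but for *CCNB3* at 81.8 and *CDC25C* at 79.7 TPM, whose ranges overlapped. *CCNB1* there was at 2905 ± 312, *WEE2* at 1320 ± 406 and *CDK1* at 21.3 ± 1.35 TPM.

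A ratio of 2 members within a library does not depend on how libraries are scaled. Of 7 ratios 6 were tested in 3 comparisons, and *WEE2*/*WEE1* was not, because *WEE1* was at 0 TPM in 2 libraries. *CCNB1*/*CDK1* was 0.934 to 1.99 in GV, near parity of cyclin and kinase RNA, and 95.6 to 165.7 in MII and 124 to 146 in damaged oocytes. The ratio was 94.4-fold higher in MII than in GV oocytes, a log2 difference of 6.56, and the log2 difference for damaged oocytes was 6.57. *CDC25B*/*WEE2*, an activating phosphatase over an inhibitory kinase, was 0.101 to 0.263 in GV, 0.00123 to 0.00289 in MII and 0.00181 to 0.00703 in damaged oocytes, 91.5-fold and 47.1-fold lower. Damaged replicate 1, low in *WEE2*, set the upper end of the damaged range.

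Among the other ratios, *CCNB2*/*CCNB1* fell from 0.722 to 0.883 in GV to 0.0739 to 0.163 in MII and 0.0809 to 0.200 in damaged oocytes, so that RNA of these 2 cyclins went from nearly even to mostly *CCNB1*. This ratio, unlike *CCNB2* in scaled CPM, did not overlap between GV and matured libraries, replicates 3 included. *CCNB1* lay wholly apart from GV, and in TPM *CCNB2* did so in the opposite direction. The separation of the ratio followed from these levels and is no added evidence for *CCNB2*. *CDC25A*/*CDC25C* went from 0.251 to 0.697 in GV to 0.0168 to 0.0254 in MII and 0.0112 to 0.0279 in damaged oocytes. *CCNB1*/*CCNB3* went from 12.5 to 23.7 in GV to 30.3 to 44.1 in MII and 24.7 to 59.9 in damaged oocytes, and *WEE2*/*PKMYT1* from 186 to 549 to 1250 to 2645 and 917 to 3365. Damaged replicate 1, low in *CCNB3* and *WEE2*, gave the 59.9 and the 917.

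All 12 comparisons of a ratio with GV passed an adjusted p of 0.05 in a two-sided exact permutation test (adjusted over 18 tests). In 11 of them p was 0.00794, the smallest that the test can give, with an adjusted p of 0.013, and for *CCNB1*/*CCNB3* in damaged oocytes the exact p was 0.0159, adjusted 0.0238. Without GV replicate 5 that last ratio no longer passed (adjusted p = 0.0804). In *CCNB1*/*CDK1*, *CDC25B*/*WEE2* and *CDC25A*/*CDC25C* both genes already lay wholly apart from GV in scaled CPM, in opposite directions. In TPM the same held for both genes of *CCNB2*/*CCNB1*, and in MII for those of *WEE2*/*PKMYT1*. The separation in these comparisons was therefore fixed before the test, which adds no evidence for them. The 12 comparisons also share genes and the same GV libraries and are not independent. None of the 6 comparisons of MII with damaged oocytes passed. *CDC25B*/*WEE2* came nearest, 1.94-fold lower in MII (exact permutation p 0.0635, adjusted 0.0879), and it passed at an adjusted p of 0.044 without damaged replicate 2.

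**Figure D3:**
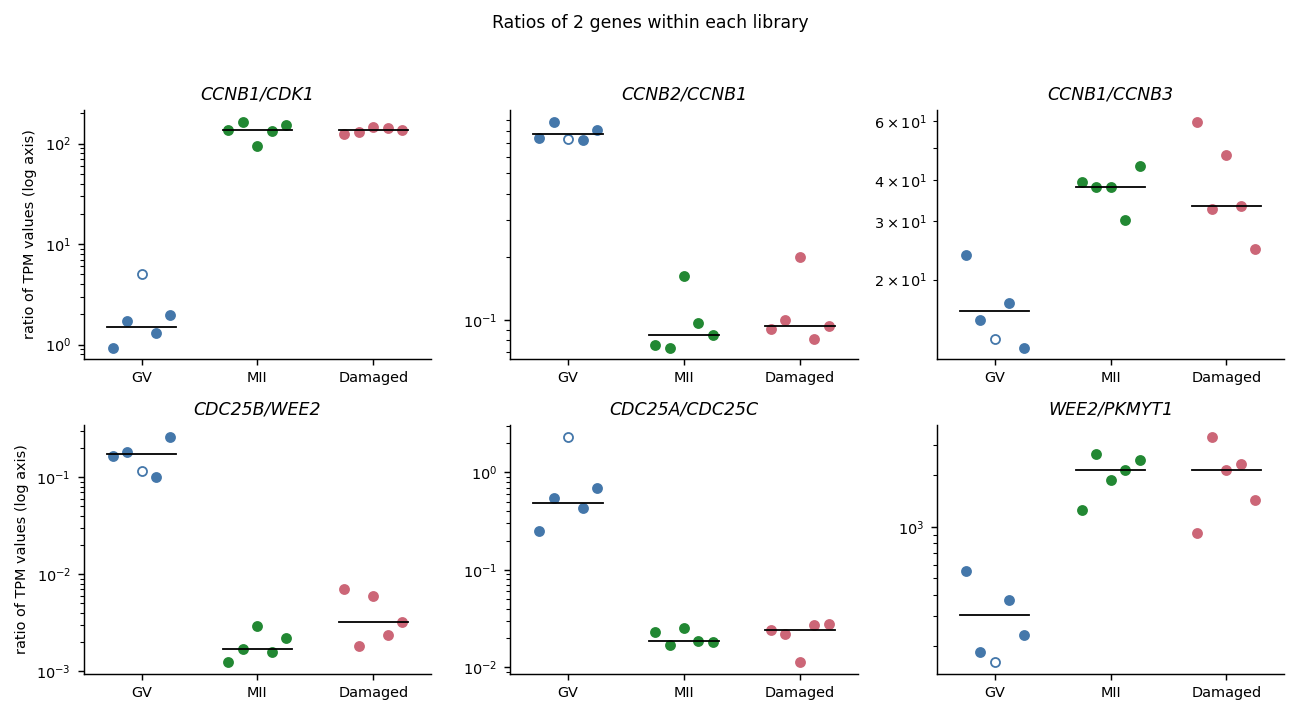
Ratio of the TPM values of 2 genes within each library (vertical axis, logarithmic) for 6 ratios; each point is a library, the open point is GV replicate 3, which is in no test, and the line is the median of the tested libraries. *CCNB1*/*CDK1* has a median of 1.51 in GV and of 137 in MII and in damaged oocytes, and in every panel the filled GV points lie apart from the matured ones.

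The 10 members had 29 transcripts with their gene known, and 6 members had more than 1. Isoform fraction here is a transcript's share of its gene's TPM, and a switch was called at an FDR under 0.01 with a change over 10 percentage points in a DEXSeq model. For MII versus GV, 9 of the 11 member transcripts tested were called, in *CCNB2*, *CCNB3*, *CDC25A* and *CDK1*, against 38.5% of all isoforms tested. For damaged versus GV, 9 of 14 were called in the same 4 genes, against 38.8%. Shares within a gene add up to the whole gene, so its transcripts are not separate results, and both *CDC25A* transcripts hold the same change. Member transcripts that were not tested had not passed the filters on level, fraction and change.

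In *CCNB2* the RNA of GV oocytes was spread over 3 isoforms, and after maturation 1 of them held nearly all of it. ENSSSCT00000076674.2, of 1892 bases, held 15.8, 36.5, 25.7 and 39.3% of the gene in GV replicates 1, 2, 4 and 5, with 2332 to 4470 estimated counts, and its loss was called (FDR 8.9e-47 for MII and 7.89e-48 for damaged oocytes). It had 0 counts in every MII library and in 4 damaged libraries, and 3.87e-08 estimated counts in damaged replicate 3. For scale, 3 counts would be 0.101 to 0.180 TPM in these libraries, at least 1302-fold below the GV mean of 235 TPM, with no scaling between libraries. The zeros are estimates from dividing reads among isoforms of the same gene, so this figure does not bound the isoform's own fold change. The longer ENSSSCT00000005069.5, of 2042 bases, went from 59.3 ± 16.7% (SD, n = 4) in GV to 98.9 ± 0.33% in MII and 99.0 ± 0.52% in damaged oocytes (FDR 2.2e-22 and 5.75e-19, DEXSeq model in DESeq2). Its own level was 322 to 659 TPM in GV, 190 to 558 in MII and 212 to 612 in damaged oocytes, ranges that overlap.

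The shortest isoform of *CCNB2*, ENSSSCT00000071864.2 of 1676 bases, went from 11.4 to 1.08% in MII and 1.05% in damaged oocytes. Its fall of 10.3 points in either comparison was just past the threshold, and it was not called without GV replicate 2 (-9.69 points in MII and -9.71 in damaged oocytes) or without GV replicate 5 (-7.62 and -7.65). Replicates 3 of MII and damaged oocytes, high in total *CCNB2*, had the same make-up as their groups, with 98.7 and 98.3% of the long isoform.

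*CCNB3* exchanged its leading isoform. ENSSSCT00000066523.2, of 5913 bases, held 68.7, 79.6, 71.8 and 83.6% in the GV libraries, 38.4, 30.9, 12.8, 29.6 and 19.5% in MII and 22.2, 21.1, 21.4, 20.7 and 29.7% in damaged oocytes. ENSSSCT00000050626.3, of 7072 bases, held 28.4, 17.6, 26.1 and 14.4% in GV, 57.7, 66.0, 83.2, 66.7 and 76.7% in MII and 73.5, 75.3, 74.5, 76.3 and 67.1% in damaged oocytes. No matured library overlapped with GV for either isoform. The longer isoform gained 48.4 points in MII (FDR 2.01e-09) and 51.7 points in damaged oocytes (FDR 1.06e-23) by the DEXSeq model. Its level was 10.9 to 16.3 TPM in GV, 37.0 to 75.8 in MII and 29.1 to 80.6 in damaged oocytes, whereas the shorter one went from 32.8 to 65.2 TPM to 11.7 to 30.2 and 8.79 to 35.7.

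In *CDC25A*, ENSSSCT00000038628.3 of 3776 bases held 98.0 to 98.5% in GV and 21.0 to 81.8% in MII and 19.4 to 57.8% in damaged oocytes, the rest being ENSSSCT00000025526.4 of 3669 bases. The change was -50.8 points in MII (FDR 1.05e-10) and -59.7 in damaged oocytes (FDR 9.89e-28). The shares after maturation varied widely and rest on 8.68 to 94.8 estimated counts per library for the longer isoform. The shorter one was at 0.270 to 0.924 TPM in GV, 0.555 to 0.990 in MII and 0.699 to 1.62 in damaged oocytes, so the fall of the gene lay in the longer isoform.

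In *CDK1* the isoform shares of the remaining RNA differed, but every call was lost under some alternative. ENSSSCT00000050632.2, of 2919 bases, held 16.8% in GV, 8.21% in MII (FDR 0.170, DEXSeq model) and 7.21% in damaged oocytes (FDR 0.0732), and was not called. ENSSSCT00000077530.2, of 813 bases, held 73.6% in GV, 55.7% in MII (FDR 0.0636) and 54.7% in damaged oocytes (FDR 0.00289), and was called in the latter alone, a difference between the comparisons that was not tested. The call in damaged oocytes was lost without GV replicate 4 (FDR 0.0186) and without damaged replicate 1, 3, 4 or 5 (FDR 0.0112 to 0.0148). It was also lost with all 5 GV libraries (FDR 0.566) and by limma diffSplice (FDR 0.0915), and without MII replicate 2 the isoform was called in MII (FDR 0.00811). ENSSSCT00000011180.4, of 998 bases, went from 8.28 to 20.2% in MII (FDR 0.00194) and 21.3% in damaged oocytes (FDR 0.000182), and was not called by limma diffSplice (FDR 0.344 and 0.240) in either. Its call in MII was also lost without GV replicate 2 (FDR 0.0154) and without MII replicate 1, where the gain was 9.77 points. ENSSSCT00000065464.3, of 2061 bases, went from 0.663 to 10.7% in MII (FDR 8.98e-20) and to 10.4% in damaged oocytes, where the gain of 9.71 points missed the threshold. In MII the gain was just past 10 points, and it was 9.14 to 9.97 points and not called without MII replicate 1, 2, 4 or 5. All of these isoforms were lower in TPM after maturation, the last at 2.99 to 6.59 in GV and 1.86 to 2.70 in the matured libraries.

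Between MII and damaged oocytes 2 of 2596 isoforms tested were called (0.077%), none of them of a member. Of the members, *CDC25B* alone had isoforms in that test. Its main isoform, ENSSSCT00000047742.3, held 100, 91.3, 100, 100 and 100% in the MII replicates and 91.7, 57.1, 89.5, 89.0 and 79.7% in the damaged replicates (FDR 0.125 by the DEXSeq model). Without damaged replicate 1 the difference of 19.4 points was called (FDR 0.000451), as was the fall of 19.0 points against GV (FDR 0.00645), which with all libraries was 16.4 points (FDR 0.0438). By limma diffSplice the fall against GV was called with all libraries (FDR 0.000673). These shares rest on 31.0 to 111 and 39.6 to 252 estimated counts of that isoform.

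**Figure D4:**
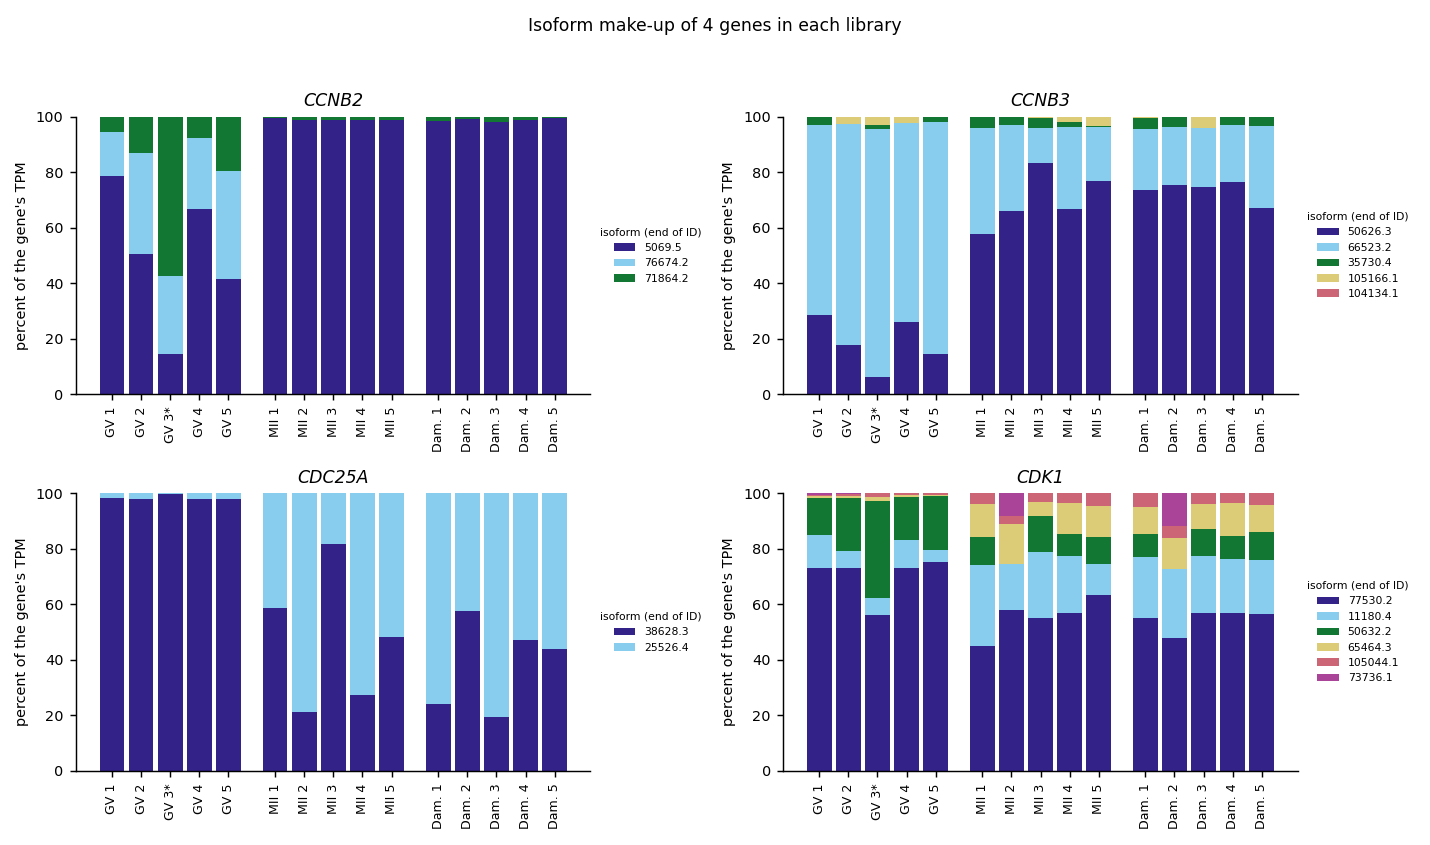
Percent of each gene's TPM (vertical axis) held by each of its isoforms in all 15 libraries for *CCNB2*, *CCNB3*, *CDC25A* and *CDK1*; each bar is a library, Dam. stands for Damaged, colours are isoforms by the end of their identifier, and the asterisk marks GV replicate 3, which is in no test. The *CCNB2* isoform ENSSSCT00000076674.2 holds 15.8 to 39.3% in the tested GV libraries and is absent from the matured bars, and the order of the 2 main *CCNB3* isoforms turns over.

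The GV library left out, replicate 3, differed from the other GV libraries in several members. It had 678 TPM of *CCNB1* against 938 to 1134, 496 of *CCNB2* against 770 to 837, 135 of *CDK1* against 489 to 1214 and 26.8 of *CDC25C* against 59.3 to 71.5. *CDC25A* at 62.7 TPM and *PKMYT1* at 4.85 TPM were above the other GV libraries, at 18.0 to 47.9 and 1.01 to 3.35. In *CCNB2* the isoform ENSSSCT00000071864.2 made up 57.3% of the gene there, against 5.40 to 19.4% in the others. With it included, *CDK1* was lower by a log2 fold change of -3.48 in MII (limma FDR 1.04e-06), and each of the 7 gene calls was made again in either comparison. Of the isoform calls, 2 were lost with it included, both in *CDK1*: ENSSSCT00000077530.2 in damaged oocytes (FDR 0.566) and ENSSSCT00000065464.3 in MII, whose gain of 9.92 points was below the threshold.

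Genes around the switch were taken from lists set by function, chosen with earlier results of these data known. Of all genes tested 28.2% were called higher and 34.2% lower in MII, and 28.0% and 33.4% in damaged oocytes. The counts below are to be read beside these shares, and no list was tested as a set. Of 12 other cyclins, CDKs and Cks subunits tested, 4 were higher and 5 lower in MII, with a median log2 fold change of -0.17, that of all genes. *CDK2* fell from 10.5 to 13.4 scaled CPM in GV to 1.25 to 2.14 in MII (log2 fold change -2.83 ± 0.23, limma FDR 1.29e-09). *CKS1B*, a small subunit that binds CDK1, rose from 1610 to 3289 to 7653 to 9213 (1.88 ± 0.16, FDR 2.52e-09). Damaged oocytes had 4 higher and 3 lower in this list.

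The CDK-activating kinase, which adds the activating phosphate to CDK1, had 2 of 3 subunits higher and 1 lower in either comparison. *MNAT1* (1.21 ± 0.14, FDR 2.19e-07) and *CCNH* (1.01 ± 0.19, FDR 7.54e-05) were higher in MII, and *CDK7*, the catalytic subunit, was lower (-0.75 ± 0.24, FDR 0.00798, limma). On library sizes none of the list was higher and 1 was lower in MII, against 10.9% and 57.6% of all genes.

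Of 6 CDK inhibitors and CDK phosphatases tested none was higher, and 4 were lower in MII and 3 in damaged oocytes. *CDKN2C*, an inhibitor of CDK4 and CDK6, had 2.09 to 2.86 scaled CPM in GV and at most 0.0762 in MII, where the fitted change depends on the count added before logs. *CDKN1A* (p21) fell from 6.92 to 10.01 to 1.58 to 5.16 (-1.61 ± 0.26, limma FDR 1.35e-05).

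Of 9 genes that restrain CDC25 phosphatases, 4 were higher and 3 lower in MII, and 5 and 3 in damaged oocytes. The checkpoint kinase *CHEK1*, which phosphorylates CDC25, rose from 63.4 to 88.3 scaled CPM in GV to 305 to 449 in MII (2.33 ± 0.15, limma FDR 1.08e-10). *SFN*, the 14-3-3 protein sigma, fell from 13.0 to 18.9 to 0.937 to 3.69 (-3.27 ± 0.31, FDR 1.17e-08).

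Of 6 genes that destroy cyclin B or hold back its destruction, 2 were higher and 1 lower in either comparison. The activators of the anaphase-promoting complex moved apart. *CDC20* rose from 46.8 to 65.0 scaled CPM in GV to 192 to 263 in MII (2.01 ± 0.14, limma FDR 2.31e-10), and *FZR1*, the activator known for holding cyclin B low in GV oocytes, fell from 23.1 to 45.8 to 3.99 to 6.06 (-2.71 ± 0.24, FDR 5.13e-09). No gene of any of these lists was called between MII and damaged oocytes. On library sizes the counts in MII were 1 higher and 7 lower among other cyclins, CDKs and Cks subunits, 0 and 4 among inhibitors, 3 and 4 among genes that restrain CDC25, and 1 and 2 among those for destruction of cyclin B. On that scale 10.9% of all genes were higher and 57.6% lower.

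The genes whose pattern over the 14 libraries was most like *CCNB1*, by Pearson's r of log2 scaled CPM, were *RAD51AP1* (r = 0.998), *TPX2* (r = 0.998) and *SF3A3* (r = 0.997). Those most like *WEE2* were *NUP93* (r = 0.988), *DDIAS* (r = 0.986) and *NNT* (r = 0.986). The 14 libraries fall into GV and matured clusters and share their scaling, so these values describe the step between stages and carry no test.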

How the data were processed

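RNAseq of 15 pig oocyte libraries, 5 each of GV, MII and Damaged, was used, grouped by the labels, with 6.40 to 23.6 M estimated counts per library. The authors trimmed reads with AfterQC and quantified them with kallisto 0.43 (version per the submitters' notes) on the Ensembl cDNA of Sscrofa11.1. The estimated counts and the TPM values per transcript were deposited by the authors without scaling between libraries, and the gene table holds estimated counts that the authors made with tximport (lengthScaledTPM). The totals of 7 of its 15 columns belonged to differently labelled libraries, so these columns were set aside. Transcripts were assigned to genes by matching their values to the remaining 8 columns, and gene counts of all libraries were recomputed by the lengthScaledTPM formula, within 2.92e-05% of deposited counts of at least 10. This placed 37151 of 38027 transcripts with a count in 18746 genes and recovered 99.8% of 4436 genes exactly on simulated data.

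A single fit of 14 libraries over 13222 genes tested the gene counts. It used filterByExpr and TMM factors (edgeR 4.0.16, R 4.3.3), then voom, lmFit and eBayes of limma 3.58.1. FDR was adjusted by Benjamini-Hochberg. For isoforms, rounded estimated counts went into the DEXSeq model, run as a likelihood ratio test with DESeq2 1.42.0, after filters of gene TPM over 1, fraction over 0.05 and change over 0.1. Ratios were tested by two-sided exact permutation. On simulated libraries with a dispersion of 0.05, limma recovered 200 of 200 genes changed by 3 on the log2 scale in each comparison. These 200 were among 13144, 13148 and 13131 genes for MII versus GV, damaged versus GV and MII versus damaged. Recovery by limma of smaller changes, or with most genes changed, was not tested. For these comparisons in the same order, the isoform model recovered 174, 187 and 191 of 200 isoforms moved by 0.25. It was run on simulated libraries of 1500, 1500 and 871 genes. P-values measure the spread between these pools.

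The members and lists were chosen with earlier results of these data known. The genes named are the 10 members, the 2 largest called changes of each list in MII versus GV, and the 3 genes most like *CCNB1* and *WEE2*. *CDK7* was added after its values were seen. Alternatives were other scalings, tools, filters and GV libraries, summed estimated counts, a replicate block and leaving out each library. Whether replicate numbers pair the samples was not settled by the correlation of their deviations. Positions are from RefSeq by symbol.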

Additional observations from a re-analysis of the deposited data

Results flagged for a closer look

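A library was marked where its gap to the nearest of its group exceeded Dixon's 95% critical value. Of 79 groups of values examined, 14 held such a library. The rule marks about 1 in 20 by chance only for independent, normally distributed values. Many of these groups are linked shares of the same gene or hold tied values, so the 14 cannot be set against that rate.

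Replicate 3 accounted for 4 of these, all in *CCNB2* or *CDC25A*. Damaged replicate 3 had 968 scaled CPM of *CCNB2* against 365 to 478 in its group. Its *CCNB2*/*CCNB1* ratio of 0.200 stood against 0.0809 to 0.0997, and that of MII replicate 3, 0.163, against 0.0739 to 0.0970. MII replicate 3 also had 8.74 scaled CPM of *CDC25A* against 4.16 to 5.00.

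In GV oocytes, replicate 1 had 62.4 scaled CPM of *CDC25C* against 40.9 to 43.5, and 98.5% of *CDC25A* in ENSSSCT00000038628.3 against 98.0 to 98.1%. GV replicate 5 had 96.5% of *CDC25B* in ENSSSCT00000047742.3 against 98.1 to 98.4%, and 75.1% of *CDK1* in ENSSSCT00000077530.2 against 73.0 to 73.1%.

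In MII oocytes, replicate 1 had 99.5% of *CCNB2* in ENSSSCT00000005069.5 against 98.7 to 98.9%, and 0.503% in ENSSSCT00000071864.2 against 1.10 to 1.34%. MII replicate 2 had 91.3% of *CDC25B* in ENSSSCT00000047742.3, where the others had 100%.

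In damaged oocytes, replicate 2 had 0.133% of *CDK1* in ENSSSCT00000050632.2 against 8.19 to 9.87%, and 47.8% in ENSSSCT00000077530.2 against 55.1 to 56.9%. Damaged replicate 5 had 29.7% of *CCNB3* in ENSSSCT00000066523.2 against 20.7 to 22.2%.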

How the results depend on the processing

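*CDK1*, *CDC25A*, *CDC25B*, *CCNB1* and *WEE2* kept their direction and call against GV under each alternative run, and no result reversed. On library sizes, the members called DEG and higher were 0 in MII and 0 in damaged oocytes, and all genes called DEG were 48 higher and 3886 lower in MII and 44 and 3670 in damaged oocytes. With *WEE2* past the threshold, 2 members were DEG and higher in MII by DESeq2, with no filter on low counts and with summed estimated counts. At least 10 CPM left fewer genes to test, of which 5388 were called in MII (196 DEG higher, 1191 lower) and 5312 in damaged oocytes (172 and 1159). Leaving out each library in turn gave 7 to 8 members called in either comparison, 1 to 2 DEG and higher, 7 to 9 member isoforms in MII, 8 to 9 in damaged oocytes and 0 to 1 between them, and 11 to 13 ratios.

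The methods took oocytes of each stage in each collection, but the labels do not tie replicate numbers to collections. Correlations of same-numbered deviations were weak, at -0.10 to 0.32. In most of these comparisons, but not all, a library correlated best with its own number, so pairing by number was not settled. With the replicate block *CCNB2* was called lower (-0.69, FDR 0.000424, and -0.62, FDR 0.00113, limma). In the replicate block of the ratios 0 passed, but with 4 pairs that exact test cannot pass, so it says nothing about stability. The block changed 1 other call, the *CDK1* isoform ENSSSCT00000077530.2 in damaged oocytes (FDR 0.172). *CDC25A* and *CDC25B* after maturation rest on 30.9 to 280.2 counts per library, which limits the precision of their levels and isoform shares.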
